A study of Homo sapiens with 10 samples.

Results

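The genes described here are 10 components of the Wnt pathway: the secreted inhibitors DKK1, DKK3, SFRP1, FRZB and WIF1, the ligand WNT5A, the receptors FZD1, FZD6 and FZD7, and CTNNB1, which encodes beta-catenin. They were found as the probe sets whose only gene symbol is one of these names, which gave 16 probe sets for the 10 genes, of 12547 probe sets with 1 symbol that stand for 8904 genes. They were selected on the signal difference between the 2 cell lines that carry progesterone receptor A (PR-A), which was larger for DKK1 than for any other probe set, so differences between those lines are given below as a description with no test. The study hybridised 10 Affymetrix U133 Plus 2 arrays with RNA of T47D cells, a luminal breast cancer line, 2 arrays for each of 5 groups. T47D-Y is a clone of T47D that lacks progesterone receptors. Both other lines were made from it by stable transfection, with WT PR-A in one and with PR-A K388R, a mutant that cannot be modified by the small protein SUMO, in the other. Both PR-A lines received vehicle (ethanol) or 10 nM R5020, a synthetic progestin, for 24 h, and T47D-Y cells received vehicle. T47D-Y cells with R5020 were not analysed here. Each receptor form was studied in 1 line, so the effect of the receptor cannot be told apart from other differences between lines. Nothing in the labels says whether replicates 1 and 2 came from different cultures, so p-values here cover the spread between the arrays alone, which may be technical.

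Wnt ligands are secreted proteins that bind Frizzled receptors. In the branch that runs through beta-catenin, a ligand brings a Frizzled and an LRP co-receptor together, the complex that destroys beta-catenin is held back, and beta-catenin enters the nucleus and acts with TCF/LEF factors. Dickkopf proteins such as DKK1 bind the LRP co-receptors, whereas SFRP1, FRZB and WIF1 bind the ligands themselves. WNT5A is best known for signalling that does not need beta-catenin. In the mammary gland, progesterone and Wnt signalling both take part in the growth of the ducts and alveoli.

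DKK1 and FZD1 carry the main differences below, and the sequence upstream of each is shown for reference. RefSeq promoters of GRCh38.p14 were matched by symbol for 6 of the 10 genes. The windows are the 250 bases before the gene start, at chr10:52314031-52314280 for DKK1 and chr7:91264183-91264432 for FZD1, both on the + strand. Capitals mark matches to a TCF/LEF motif (CTTTG followed by AA, AT, TA or TT, both strands) and to TATAAA on the gene strand.
DKK1: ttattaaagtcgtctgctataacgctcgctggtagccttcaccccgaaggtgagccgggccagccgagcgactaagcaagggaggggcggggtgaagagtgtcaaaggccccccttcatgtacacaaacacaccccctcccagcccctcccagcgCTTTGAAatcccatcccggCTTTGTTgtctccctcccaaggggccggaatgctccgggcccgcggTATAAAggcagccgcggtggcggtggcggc
FZD1: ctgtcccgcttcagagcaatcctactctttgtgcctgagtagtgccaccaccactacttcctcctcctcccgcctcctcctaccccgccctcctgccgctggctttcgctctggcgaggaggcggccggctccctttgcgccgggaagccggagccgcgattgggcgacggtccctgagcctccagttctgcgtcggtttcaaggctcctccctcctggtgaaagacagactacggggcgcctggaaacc

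The DKK1 window held 2 TCF/LEF matches, starting at -95 and -76 relative to the gene start, and 1 TATAAA starting at -30. The FZD1 window held neither. Of all 35116 windows of this length, 12% held a TCF/LEF match and 6.8% held TATAAA. The steroid receptor half-site TGTTCT, searched on both strands, was in neither window and in 12.4% of all windows. Among the 6 genes it was found only in the WIF1 window. A match is a run of letters and says nothing of binding.

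The authors deposited normalized log2 signals, 1 per probe set and array, so a difference of 1 is a 2-fold difference. Array medians lay between 4.59 and 4.69 and lower quartiles between 3.28 and 3.39; a probe set under its array's lower quartile is called dim here. Pearson's r across probe sets, which do not count as replicates, ran from 0.996 to 0.997 for arrays of the same group and from 0.977 to 0.993 for arrays of different groups. Of 8 measured luminal markers, KRT18, KRT19, CDH1 and EPCAM were at or above the 97.4th percentile on every array, FOXA1, ESR1 and TFF3 at or above the 70.3rd, and TFF1 went down to the 42.8th. Of 5 measured leukocyte markers, PTPRC and LYZ were dim on all 10 arrays and TYROBP on 2, while CD14 lay between 4.01 and 4.64 and CD3E between 5.21 and 5.77. Of 7 measured fibroblast markers, LUM was dim on all 10 and the other 6 on 0, and COL1A1 reached 6.11 to 9.59. The receptor gene PGR was not analysed here. Known progestin targets were higher with R5020 in both lines, 5 of 6 measured genes in WT PR-A cells and 6 of 6 in PR-A K388R cells, among them FKBP5 by 3.54 and 3.56 on the log2 scale. A probe set was counted as higher or lower at a Benjamini-Hochberg adjusted p under 0.05 in limma, taken over all 16376 probe sets, together with a fold of at least 1.5.

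Among the secreted inhibitors, DKK1 (204602_at) was high in WT PR-A cells, near the dim end in PR-A K388R cells and between both in T47D-Y cells. In WT PR-A cells the DKK1 signal was 11.79 and 11.63 with vehicle, and 11.72 and 11.63 with R5020. In PR-A K388R cells it was 3.85 and 3.74 with vehicle, and 3.55 and 4.15 with R5020. In T47D-Y cells it was 5.62 and 5.38. The 3 lines did not overlap, while the vehicle and R5020 arrays of each PR-A line did. In bulk RNA such as this, fewer cells with a transcript and less of it per cell cannot be told apart.

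DKK1 was 7.92 lower on the log2 scale in vehicle-treated PR-A K388R cells than in vehicle-treated WT PR-A cells, a 242-fold difference. With R5020 in both lines it was 7.82 lower, or 226-fold. In both conditions this was rank 1 by size among 16376 probe sets, which is how the gene was chosen. Against T47D-Y cells, DKK1 was 6.21 higher in WT PR-A cells with vehicle (74.3-fold) and 1.71 lower in vehicle-treated PR-A K388R cells (3.26-fold). No test is given for these differences. Signals as low as those of the PR-A K388R arrays are close to the lower quartile, where the log2 scale is least certain, so the folds that rest on them have an uncertain size. With single arrays left out, the difference between lines lay between -8.02 and -7.82 with vehicle and between -8.20 and -7.45 with R5020. DKK1 was chosen for this difference, so these ranges only describe its size.

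R5020 itself did not change DKK1 detectably in either line. The response was -0.04 (SE 0.19, 95% interval -0.46 to 0.37, limma adjusted p = 0.947) in WT PR-A cells and 0.05 (SE 0.19, 95% interval -0.36 to 0.47, adjusted p = 0.963) in PR-A K388R cells. Both intervals lie inside a 1.5-fold change in either direction. They rest on a spread shared by all groups, while the R5020-treated PR-A K388R arrays had an SD of 0.42. With single arrays left out, the PR-A K388R response ran from -0.32 to 0.43. Signals there were near the lower quartile, so these values do not show that DKK1 stayed level in PR-A K388R cells. The difference of the responses was 0.10 (95% interval -0.49 to 0.69), given with no test.

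**Figure D1:**
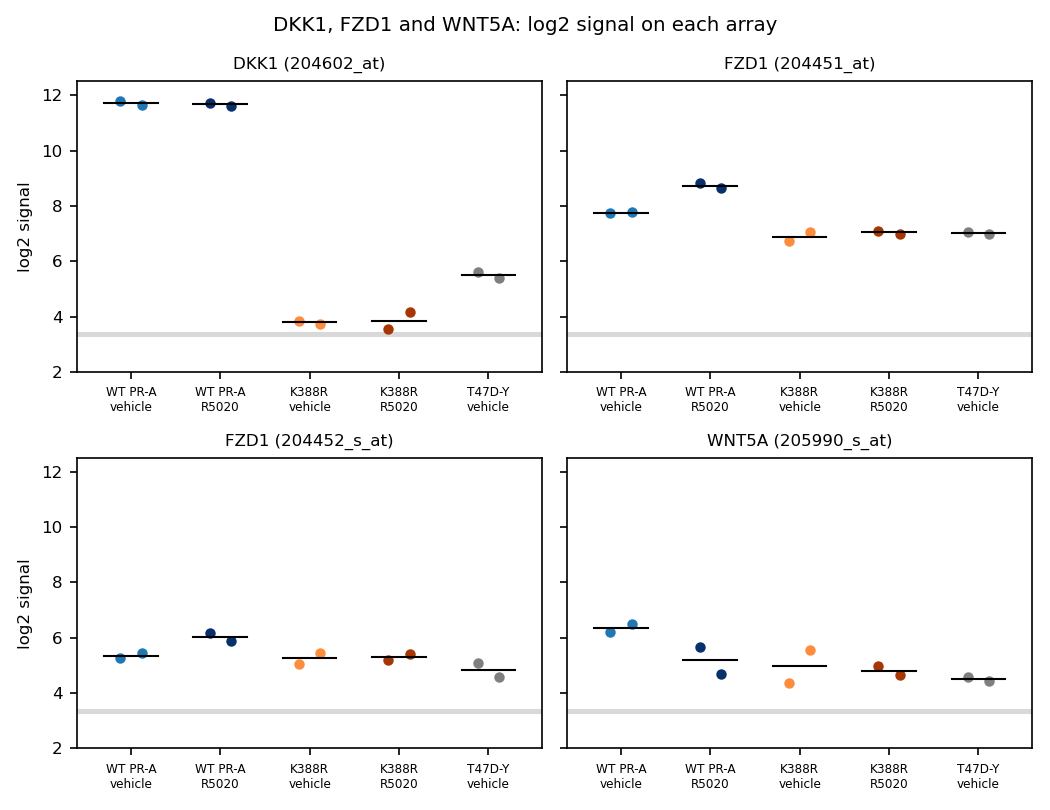
Log2 signal (y axis) of DKK1, FZD1 and WNT5A on each of the 10 arrays, by group (x axis). Points are arrays, black lines are group means of 2 arrays and the grey band spans the lower quartiles of the arrays (3.28 to 3.39). DKK1 stands at 11.63 to 11.79 on the 4 WT PR-A arrays and at 3.55 to 4.15 on the 4 PR-A K388R arrays. FZD1 (204451_at) is highest on the R5020-treated WT PR-A arrays, at 8.83 and 8.64.

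The other secreted inhibitors gave low signals in all 3 lines. DKK3, a divergent Dickkopf protein, lay between 2.30 and 2.88 and was dim on all 10 arrays, as were WIF1 (2.74 to 3.03) and the FRZB probe set 203698_s_at (2.57 to 2.98). The second FRZB probe set, 203697_at, lay between 3.22 and 3.96 and was dim on 1 array. SFRP1 lay between 3.16 and 3.46 (202035_s_at, dim on 4 arrays), 3.28 and 3.58 (202036_s_at, dim on 2) and 3.54 and 3.93 (202037_s_at, dim on 0). None of these 7 probe sets was called in any of the 5 tested comparisons. The widest span of group means among them was 0.324 on the log2 scale, for DKK3. At such signals a change in RNA may leave little trace on the array, so these values do not show that the genes stayed level.

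The ligand WNT5A (205990_s_at) was higher in vehicle-treated WT PR-A cells than in T47D-Y cells. Its signal was 6.22 and 6.49 in WT PR-A cells with vehicle, 5.68 and 4.68 after R5020, 4.36 and 5.57 in vehicle-treated PR-A K388R cells, 4.96 and 4.65 after R5020, and 4.59 and 4.42 in T47D-Y cells. The vehicle-treated WT PR-A arrays were above all 8 others. The spread within groups was the widest of the 16 probe sets, with a pooled SD of 0.52, and the 2 vehicle-treated PR-A K388R arrays lay on either side of the T47D-Y arrays.

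Against T47D-Y, WNT5A was 1.85 higher in WT PR-A cells with vehicle (SE 0.39, 95% interval 0.98 to 2.71, 3.60-fold, adjusted p = 0.0144) and 0.46 higher in PR-A K388R cells (95% interval -0.41 to 1.32, adjusted p = 0.555), which did not pass. The first call was lost without any 1 of the 4 arrays compared, with adjusted p = 0.0661 and 0.12 without WT PR-A vehicle replicate 1 or 2 and 0.0713 and 0.108 without T47D-Y replicate 1 or 2. With R5020, the WNT5A response was -1.18 in WT PR-A cells (SE 0.39, 95% interval -2.04 to -0.31, adjusted p = 0.112) and -0.16 in PR-A K388R cells (95% interval -1.02 to 0.71, adjusted p = 0.951). Neither passed. The WT PR-A response rested on which R5020 array was kept: it was -1.80 (adjusted p = 0.0285) without R5020-treated WT PR-A replicate 1 and -0.55 (adjusted p = 0.567) without replicate 2. It was not called without either vehicle-treated WT PR-A array (adjusted p = 0.257 and 0.435), and passed without either vehicle-treated PR-A K388R array (-1.18, adjusted p = 0.0192). The difference of the 2 responses was 1.02 (95% interval -0.20 to 2.24, adjusted p = 0.537). Between the PR-A lines, WNT5A was 1.39 lower in PR-A K388R cells with vehicle and 0.37 lower with R5020, given with no test.

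Among the receptors, FZD1 rose when WT PR-A cells received R5020. FZD1 is a Frizzled that takes part in beta-catenin signalling, and it has 2 probe sets in the table. The signal of 204451_at was 7.73 and 7.78 in WT PR-A cells with vehicle, and 8.83 and 8.64 after R5020. In PR-A K388R cells it was 6.73 and 7.06 with vehicle and 7.11 and 6.98 with R5020, and in T47D-Y cells 7.05 and 6.97. The 4 WT PR-A arrays were above the 6 others, and the R5020-treated pair was above the vehicle pair. The vehicle and R5020 arrays of PR-A K388R cells overlapped, and both pairs overlapped with the T47D-Y arrays.

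The R5020 response of FZD1 (204451_at) was 0.98 in WT PR-A cells (SE 0.14, 95% interval 0.68 to 1.29, 1.98-fold, adjusted p = 0.00164). It remained called without any single array, with values from 0.87 to 1.10, and was lost with unmoderated analysis of variance contrasts (adjusted p = 0.0649). The response of PR-A K388R cells was 0.15 (SE 0.14, 95% interval -0.16 to 0.46, adjusted p = 0.79). The difference of the responses, PR-A K388R minus WT PR-A, was -0.83 (SE 0.19, 95% interval -1.27 to -0.39) and did not pass over all probe sets (adjusted p = 0.0769; unadjusted p = 0.00178 in limma). It passed without the replicate block (adjusted p = 0.0334), a fit that counts 1 residual degree of freedom too many, and with a variance trend on signal (adjusted p = 0.0424). In 18 of 21 alternative settings it did not pass. With single arrays left out the difference of the responses ran from -1.04 to -0.62. With vehicle, FZD1 was also 0.74 higher in the WT PR-A line than in T47D-Y cells (SE 0.14, 95% interval 0.44 to 1.05, adjusted p = 0.0075), a call lost without WT PR-A vehicle replicate 1 (adjusted p = 0.0525) or 2 (0.0723) or T47D-Y replicate 2 (0.0733). PR-A K388R cells stood at -0.12 against T47D-Y (95% interval -0.43 to 0.19, adjusted p = 0.678).

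The second FZD1 probe set, 204452_s_at, was dimmer and moved in the same direction with R5020 in WT PR-A cells. Its signal there was 5.27 and 5.44 with vehicle and 6.18 and 5.90 with R5020. The response of 0.68 (SE 0.20, 95% interval 0.23 to 1.14) did not pass (limma adjusted p = 0.0743). Of 19 alternative settings 15 did not pass either and 4 did, among them the WT PR-A arrays alone (adjusted p = 0.0375). With single arrays left out the response ran from 0.51 to 0.86. In PR-A K388R cells the signal was 5.06 and 5.46 with vehicle and 5.19 and 5.41 with R5020, a response of 0.04 (adjusted p = 0.977). In T47D-Y cells it was 5.10 and 4.59. Against T47D-Y cells, this probe set was called in neither PR-A line with vehicle. It was 0.51 higher in WT PR-A cells (limma adjusted p = 0.174) and 0.42 higher in PR-A K388R cells (adjusted p = 0.285). With vehicle, PR-A K388R cells were 0.09 lower than WT PR-A cells by this probe set, against 0.86 by 204451_at, so the probe sets differ on the vehicle levels of the lines and share the direction with R5020 (0.74 and 1.69 lower in PR-A K388R cells). The differences between the PR-A lines have no test.

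FZD7, a Frizzled linked to beta-catenin signalling in breast and other epithelia, was called in no comparison. By 203705_s_at it was 6.62 and 6.18 in WT PR-A cells with vehicle, and 6.67 and 6.59 after R5020. The PR-A K388R arrays gave 6.05 and 6.35 with vehicle and 5.98 and 6.58 with R5020, and in T47D-Y cells it was 7.01 and 6.64. The T47D-Y arrays were above both vehicle-treated PR-A lines. The difference was -0.43 for WT PR-A cells (95% interval -0.93 to 0.08, adjusted p = 0.346) and -0.63 for PR-A K388R cells (95% interval -1.14 to -0.12, adjusted p = 0.16). By 203706_s_at, with signals of 6.45 to 7.49, the same differences were -0.27 (adjusted p = 0.673) and -0.48 (adjusted p = 0.358). FZD6 (203987_at), a Frizzled known from planar cell polarity, was dim on all 10 arrays at 2.48 to 2.84.

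CTNNB1 was called in no comparison. The brighter of its probe sets, 201533_at, gave 8.12 and 8.16 in WT PR-A cells with vehicle, and 7.98 and 7.94 after R5020. It gave 8.12 and 7.91 in vehicle-treated PR-A K388R cells, 7.73 and 7.76 after R5020, and 7.67 and 7.86 in T47D-Y cells. In both PR-A lines the R5020 arrays were below the vehicle arrays, with responses of -0.18 (95% interval -0.45 to 0.09, adjusted p = 0.521) and -0.27 (adjusted p = 0.459). The largest of its differences was 0.37 for vehicle-treated WT PR-A against T47D-Y cells (SE 0.12, 95% interval 0.10 to 0.64, adjusted p = 0.0969), which is under 1.5-fold. The other probe set, 1554411_at, lay between 4.69 and 5.37 with responses of -0.17 (adjusted p = 0.707) and -0.36 (adjusted p = 0.487). Beta-catenin is controlled largely through its breakdown, so its mRNA does not measure the protein.

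**Figure D2:**
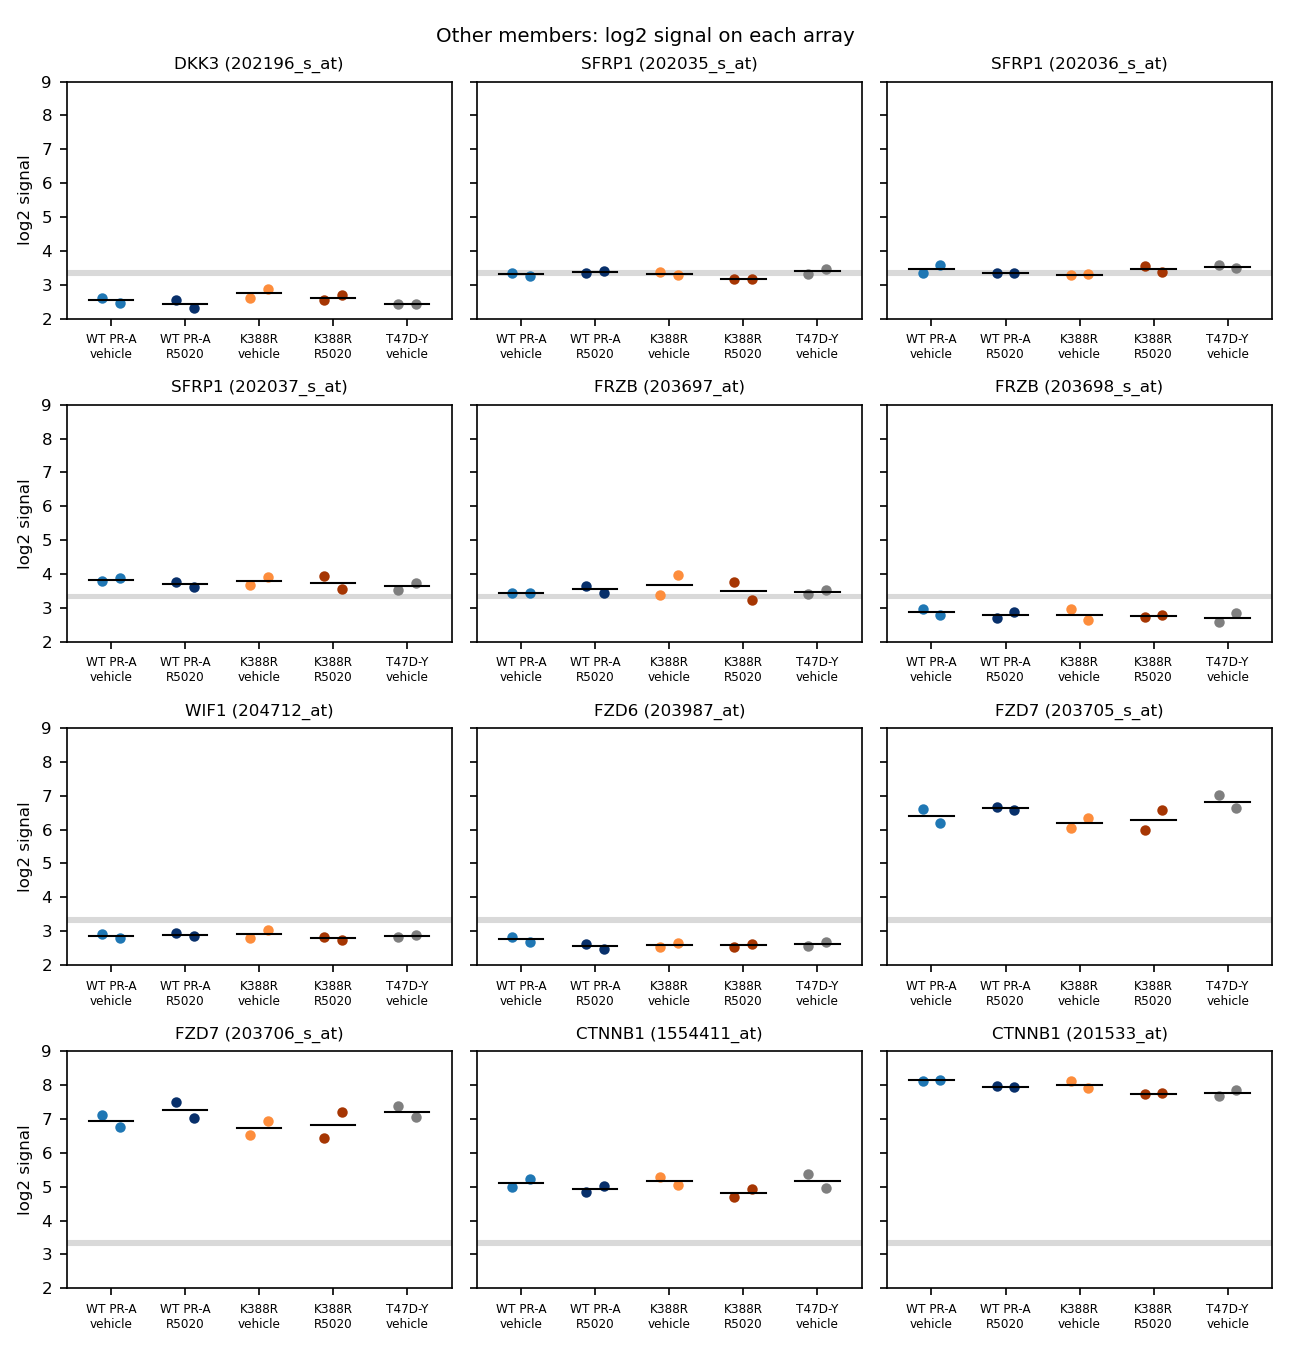
Log2 signal (y axis) of DKK3, SFRP1, FRZB, WIF1, FZD6, FZD7 and CTNNB1 on each of the 10 arrays, by group (x axis), 1 panel per probe set. Points are arrays, black lines are group means of 2 arrays and the grey band spans the lower quartiles of the arrays. DKK3, WIF1, FZD6 and the FRZB probe set 203698_s_at lie under the band throughout, and CTNNB1 (201533_at) lies between 7.67 and 8.16.

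Counted over the 16 probe sets, R5020 in WT PR-A cells called 1 higher (FZD1) and 0 lower, or 6.25%, where 6.41% of all probe sets were called, 3.63% higher and 2.77% lower. The median over the 16 was -0.0714 against -0.013 for all. In limma 3 of the 16 had an unadjusted p under 0.05. For this and the later counts at an unadjusted p, the share of all probe sets at that threshold is not given. Such counts therefore cannot be set against a background. R5020 in PR-A K388R cells called 0 of 16, where 1.4% of all were called (1.01% higher, 0.391% lower), and 0 had an unadjusted p under 0.05. The differences that did not pass there ran from -0.36 to 0.17. In both lines the share called was near the background.

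DKK1 was left out of the remaining counts, since it was chosen for a difference between the lines that those comparisons share. The difference of the R5020 responses called 0 of 15 probe sets in limma, with 2 at an unadjusted p under 0.05 and 1.47% of all probe sets called (0.519% higher, 0.953% lower). Vehicle-treated WT PR-A against T47D-Y cells called 2 higher (WNT5A and FZD1) and 0 lower of 15, or 13.3%, where 7.28% of all were called, 3.72% higher and 3.55% lower. The members were chosen with earlier results of these data known, so this share may not be independent of the choice. The median over the 15 was 0.108 against 0.00887 for all, and 4 had an unadjusted p under 0.05 in limma. PR-A K388R cells with vehicle, against T47D-Y cells, called 0 of 15 in limma, with 2 at an unadjusted p under 0.05 (DKK3 and FZD7) and 3.36% of all probe sets called (1.06% higher, 2.3% lower). The last comparison and the one before it share the T47D-Y arrays.

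**Figure D3:**
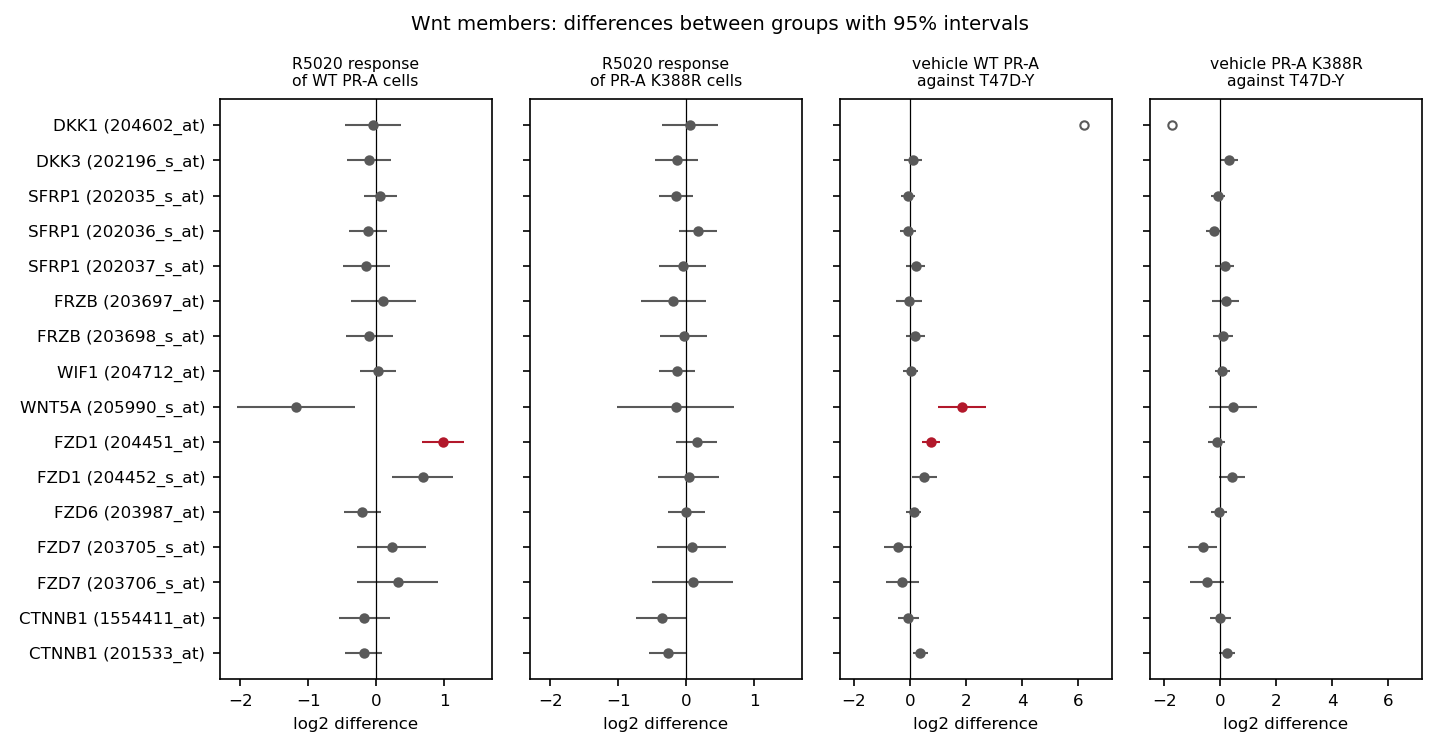
Log2 difference (x axis) of the 16 probe sets (y axis) in 4 comparisons, with 95% intervals from limma. Red points passed the test, grey points did not, and open points without an interval are DKK1 where no test is given. FZD1 (204451_at) is called in WT PR-A cells given R5020, at 0.98, and WNT5A and FZD1 are called for vehicle-treated WT PR-A against T47D-Y cells, at 1.85 and 0.74.

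Markers of other cell types moved with some of these comparisons. Over the 3 measured of 6 basal markers, the mean signal per array was 6.04 to 6.13 in WT PR-A cells with vehicle, against 5.47 to 5.52 in T47D-Y cells, with 2 genes called higher (ACTA2 by 1.07 and MYLK by 0.61). With R5020 in WT PR-A cells it was 5.999 to 6.005, with 1 gene called lower. Over the 7 measured of 8 fibroblast markers it was 4.91 to 4.93 in WT PR-A cells with vehicle and 4.65 to 4.75 in T47D-Y cells, with 1 gene called higher, and 4.59 to 4.76 with R5020 in WT PR-A cells, with 1 gene called lower. Over the 8 measured of 11 luminal markers it was 10.08 to 10.14 in WT PR-A cells with vehicle and 10.5 to 10.56 in T47D-Y cells, with 3 genes called lower, and 9.57 to 9.64 with R5020 in WT PR-A cells, with 1 gene called lower. In PR-A K388R cells with vehicle the luminal mean was 10.12 to 10.22, with 2 genes called lower than in T47D-Y cells. The basal mean there was 5.73 to 5.92, with 0 genes called. The fibroblast mean was 4.57 to 4.69, with 1 gene called lower. With R5020 in PR-A K388R cells, 1 fibroblast gene was called lower and 0 basal or luminal genes were called. Leukocyte markers, 5 measured of 8, stayed between 3.65 and 3.88 in all groups, with 0 called in limma. The part of these shifts in the FZD1 and WNT5A results was not tested.

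Other genes of the pathway were followed through 8 lists with 60 measured genes and 94 probe sets. In WT PR-A cells R5020 called 3 of these genes higher and 4 lower (9.57% of probe sets, against 6.41% of all). The ligand WNT10B fell by 0.97 (adjusted p = 0.000419), from 7.72 and 7.82 to 6.80 and 6.81, and was called in no other comparison. TLE2, a Groucho-type corepressor of TCF/LEF factors, fell by 0.99 (adjusted p = 8e-04), and its relative TLE1 rose by 1.09 (adjusted p = 0.00371; adjusted p = 0.053 without WT PR-A vehicle replicate 1). TLE1 was also called by 203221_at (0.81, adjusted p = 0.029) but not by 203220_s_at (0.27, adjusted p = 0.305). SIAH1, a ubiquitin ligase, rose by 0.75 (adjusted p = 0.0016). JUP, the junctional relative of beta-catenin also called plakoglobin, fell by 0.78 (adjusted p = 0.00208). MYC, a beta-catenin target, rose by 0.91 (adjusted p = 0.0198), and ROR2, a receptor for WNT5A, fell by 0.71 (adjusted p = 0.0441). With R5020 in PR-A K388R cells, WNT10B was at -0.30, TLE2 at -0.27 and JUP at -0.35. TLE1 was at 0.32 there, SIAH1 at 0.37 and MYC at 0.56, so all of these shared the direction of WT PR-A cells. ROR2 went the other way, at 0.13. None of these responses was called in PR-A K388R cells. The differences of their responses did not pass either (limma adjusted p = 0.0715 to 0.734).

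The MYC and ROR2 calls did not hold with single arrays left out. MYC was lost without any 1 of the 4 WT PR-A arrays (adjusted p = 0.0805 to 0.165). ROR2 was lost without either vehicle-treated WT PR-A array (adjusted p = 0.225 and 0.19), without R5020-treated WT PR-A replicate 1 (-0.42, adjusted p = 0.344) or without either R5020-treated PR-A K388R array (adjusted p = 0.0589).

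In PR-A K388R cells R5020 called 0 of these genes higher and 1 lower (1.06% of probe sets, against 1.4% of all). This was ID2, which encodes an inhibitor of basic helix-loop-helix factors, at -0.85 (201566_x_at, adjusted p = 0.0212). The other ID2 probe set, 201565_s_at, was called in neither line, at -0.82 in WT PR-A cells (adjusted p = 0.0709) and -0.83 in PR-A K388R cells (0.173). The difference of the responses by 201566_x_at did not pass (limma adjusted p = 0.632). In WT PR-A cells 201566_x_at was at -0.54 (adjusted p = 0.0477), under a 1.5-fold change, so only its PR-A K388R response was called. The call was lost without PR-A K388R vehicle replicate 1 (adjusted p = 0.161) or R5020 replicate 1 (0.115) or 2 (0.171). The difference of the responses called 1 gene (1.06% of probe sets, against 1.47% of all), CTNNAL1, an alpha-catenin relative, described further on.

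**Figure D4:**
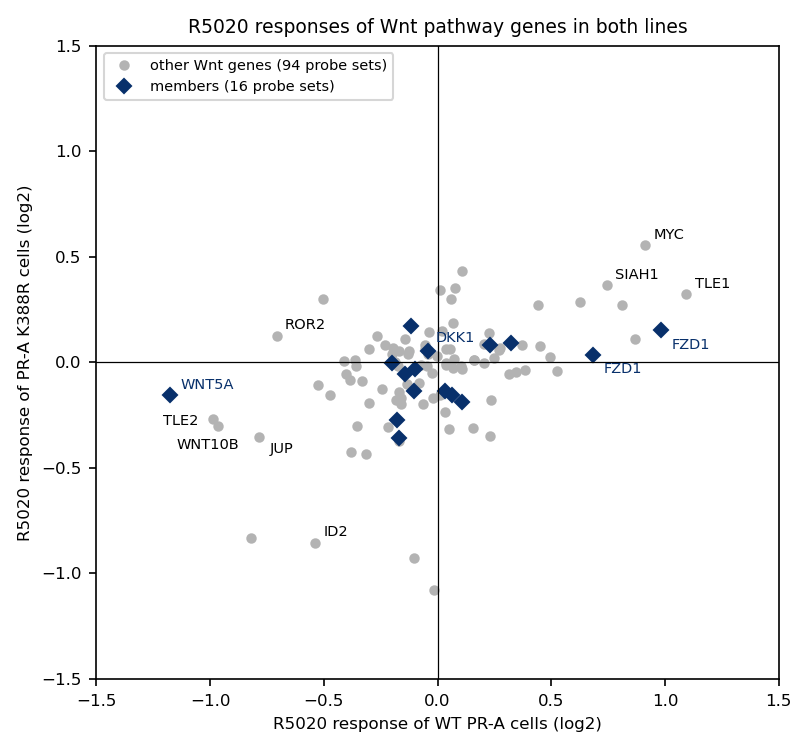
R5020 response in PR-A K388R cells (y axis) against that in WT PR-A cells (x axis), both as log2 differences, for the 16 probe sets of the 10 genes (blue) and 94 probe sets of other Wnt genes (grey). Names in black mark the called probe sets that the text names. FZD1 lies at 0.98 and 0.68 on the x axis and at 0.15 and 0.04 on the y axis, and DKK1 lies near 0 on both.

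Against T47D-Y, vehicle-treated WT PR-A cells called 3 of the 60 genes higher and 6 lower (11.7% of probe sets, against 7.28% of all). ID2 was 0.98 higher (adjusted p = 0.00205) and JUN, an AP-1 subunit, was 1.09 higher (adjusted p = 0.0034). CELSR2, a planar polarity cadherin, was at -0.79 (adjusted p = 0.00188), and CDH3, P-cadherin, was at -0.88 (adjusted p = 0.00302). These 4 calls held without any single array. With unmoderated analysis of variance contrasts the calls of ID2 (adjusted p = 0.0697), JUN (0.104) and CDH3 (0.0724) were lost. JUN was also called by 201464_x_at (0.82, limma adjusted p = 0.0117) but not by 201465_s_at (0.42, adjusted p = 0.293). JUP was at -0.64 (adjusted p = 0.00649) and TLE2 at -0.70 (adjusted p = 0.00558), so both were below T47D-Y with vehicle and fell further with R5020 in WT PR-A cells. The JUP call was lost without WT PR-A vehicle replicate 1 (adjusted p = 0.0617) or 2 (0.0533) or T47D-Y replicate 2 (0.0716), and the TLE2 call without WT PR-A vehicle replicate 2 (0.0757) or T47D-Y replicate 1 (0.0644).

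The other 3 called genes of that comparison also lost their call with single arrays left out. CSNK1A1, a kinase of the destruction complex, was at -0.69 by 1556007_s_at (adjusted p = 0.00419; 0.0598 without WT PR-A vehicle replicate 2). PPP2R5C, a regulatory subunit of protein phosphatase 2A, was at -0.77 by 1557718_at (adjusted p = 0.0144; 0.143 without WT PR-A vehicle replicate 2 and 0.155 without T47D-Y replicate 2). DAAM1, a formin of the polarity branch, was at 0.66 (adjusted p = 0.0278; 0.41 with adjusted p = 0.258 without WT PR-A vehicle replicate 1, 0.211 and 0.0788 without T47D-Y replicate 1 or 2). For CSNK1A1 and PPP2R5C the remaining probe sets were not called.

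PR-A K388R cells with vehicle, against T47D-Y cells, called 2 genes higher and 0 lower (2.13% of probe sets, against 3.36% of all), both listed as beta-catenin targets. JUN was 0.78 higher by 201466_s_at (adjusted p = 0.0362) and SOX9, a transcription factor, 1.27 higher by 202936_s_at (adjusted p = 0.0496). Their other probe sets were not called. JUN was at 0.64 by 201464_x_at (adjusted p = 0.0609) and 0.29 by 201465_s_at (0.474), and SOX9 at 1.42 by 202935_s_at (0.0609). The JUN call was lost without any 1 of the 4 arrays compared (adjusted p = 0.127 to 0.243). For SOX9 the arrays were 8.08 and 7.27 against 6.17 and 6.64, and without PR-A K388R vehicle replicate 1 the difference was 0.76 (adjusted p = 0.218). Without T47D-Y replicate 1 or 2 it was 0.98 (adjusted p = 0.329) and 1.57 (0.0921), and the call was also lost without either vehicle-treated WT PR-A array (0.0678) or either R5020-treated PR-A K388R array (0.0518).

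The 5 genes whose signal most resembled that of DKK1 over the 10 arrays were SH3BGRL, EFS, ABCA13, DCAF4L2 and MAGEC1. They were chosen among 1409 probe sets whose group means span at least 1, and Pearson's r with DKK1 was 0.982 to 0.987 over the 10 arrays, which share 3 lines, so r mostly reflects the line each array came from. SH3BGRL (201312_s_at) had group means of 7.79 and 7.59 in WT PR-A cells with vehicle and R5020, 4.66 and 4.696 in PR-A K388R cells, and 5.73 in T47D-Y cells, the same order of lines as DKK1. EFS, a docking protein of the Cas family, had 9.19 and 9.28, 7.49 and 7.87, and 8.04. MAGEC1, a cancer-testis antigen, had 6.49 and 6.42, 4.49 and 4.50, and 5.15. ABCA13, a member of the ABC transporter family, had 7.88 and 7.63 in WT PR-A cells but 2.91 and 3.16 in PR-A K388R cells and 3.09 in T47D-Y cells, and DCAF4L2 had 6.35 and 6.57, 3.03 and 3.26, and 3.21. In these 2 genes the T47D-Y means lay within 0.2 of both PR-A K388R means, while that of DKK1 was more than 1 above them. Those means of ABCA13 and DCAF4L2 were under the lower quartiles of the arrays (3.28 to 3.39). They therefore do not show that the lines had equal levels of these genes.

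**Figure D5:**
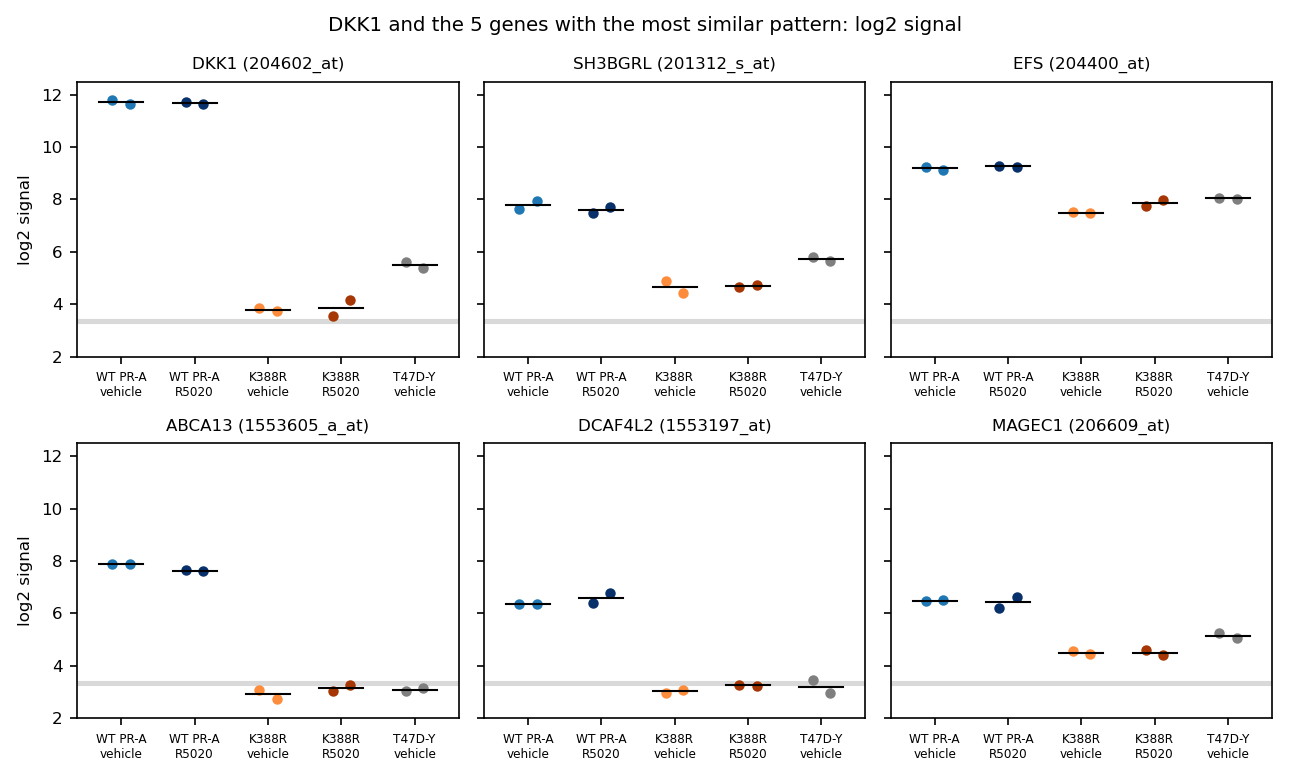
Log2 signal (y axis) of DKK1 and the 5 genes with the highest Pearson r with it, on each of the 10 arrays by group (x axis). Points are arrays, black lines are group means of 2 arrays and the grey band spans the lower quartiles of the arrays. All 6 genes are highest in WT PR-A cells with and without R5020, and T47D-Y cells lie above PR-A K388R cells for DKK1 (5.50 against 3.79 and 3.85), SH3BGRL, EFS and MAGEC1.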

How the data were processed

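RNA of 10 T47D cell samples in 5 groups was hybridised to Affymetrix U133 Plus 2 arrays. For culture and RNA the labels name DMEM, stripped serum and PicoPure, while the study's methods name MEM, FBS and RNAeasy. The authors deposited log2 signals after normalization in Partek Genomics Suite; the method and any background correction are not given in the sources used here. The table used here holds 16376 probe sets, part of the array. The probe table gives 1 gene symbol for 12547 of them and several for 457, and does not list 3372. The number of arrays limits the precision.

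With limma 3.58.1 (R 4.3.3), 1 model was fitted to all 10 arrays with 5 group means and the replicate number as a block, leaving 4 residual and 5.62 prior degrees of freedom. The sums of replicate 1 and replicate 2 arrays agree for every probe set (largest difference 3e-04), so the replicate number had already been taken out of the values; whether arrays of the same number deviate together cannot be checked for that reason. The 5 tested comparisons are both R5020 responses, their difference (PR-A K388R minus WT PR-A), and T47D-Y against each PR-A line with vehicle. Both comparisons between PR-A lines are described with no test, because they chose DKK1. Calls needed a Benjamini-Hochberg adjusted p under 0.05 over all probe sets and a fold of at least 1.5; intervals are unadjusted 95% intervals.

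The members and lists were chosen with earlier results of these data known. All 10 members are named, and of each other list up to 4 called genes with the smallest adjusted p per comparison. Genes most like DKK1 are the 5 with the highest Pearson r. Promoter windows are the 250 upstream bases of RefSeq promoters. Alternatives were no replicate block, quantile normalization, median centring, a fold of 2, the 40% dimmest probe sets left out, unadjusted p-values, unmoderated analysis of variance contrasts, a variance trend, the compared groups alone, 1 probe set per gene, and leaving out each array, where the array left in the group was taken to vary as much as those of other groups. The fit was tested on simulated data. Figures were drawn with Python 3.11.15 and matplotlib 3.10.9.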

Additional observations from a re-analysis of the deposited data

Results flagged for a closer look

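CTNNAL1 (202468_s_at), an alpha-catenin relative, was picked out because its R5020 responses in the 2 PR-A lines differed by the test of the difference itself. Its signal was 9.71 and 9.59 in WT PR-A cells with vehicle, 9.12 and 9.17 after R5020, and 9.37 and 9.55 in vehicle-treated PR-A K388R cells and 9.81 and 9.71 after R5020. Neither response was itself called. It was -0.50 in WT PR-A cells (limma adjusted p = 0.0235), under a 1.5-fold change, and 0.30 in PR-A K388R cells (adjusted p = 0.347). The difference of the responses was 0.80 on the log2 scale (SE 0.16, limma adjusted p = 0.0475). This difference was lost with unmoderated analysis of variance contrasts (adjusted p = 0.194) and with the compared groups alone (0.0793). It went past the threshold by little: leaving out any 1 of the 10 arrays gave adjusted p = 0.0777 to 0.199, and quantile normalization gave 0.0555.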

How the results depend on the processing

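Of 210 counts of members under other settings, 190 equalled the main count and 20 did not; the cause of these changes was not tested. For R5020 in WT PR-A cells, the count of higher probe sets (1) was 0 at a fold of at least 2 and with unmoderated contrasts, 2 with unadjusted p-values and with the compared groups alone, and 1 to 2 with each array left out. Its count of lower probe sets (0) was 1 with unadjusted p-values and 0 to 1 with each array left out. For the difference of the responses, lower probe sets (0) became 1 without the replicate block, 1 with the variance trend and 2 with unadjusted p-values. The fit without the replicate block changed no other count of members. For vehicle-treated WT PR-A against T47D-Y cells, higher probe sets (2) became 1 at a fold of at least 2, 0 with unmoderated contrasts and 0 to 2 with each array left out. For PR-A K388R against T47D-Y cells, lower probe sets (0) became 1 with unadjusted p-values.

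The R5020 responses of DKK1, all near 0, changed sign with single arrays left out, ranging from -0.1435 to 0.05572 in WT PR-A cells, -0.32 to 0.43 in PR-A K388R cells and -0.28 to 0.47 for their difference. Quantile normalization and median centring moved the median of all probe sets by at most 0.0308 and 0.0695. Leaving aside the fold of 2 and unadjusted p-values, the share of all probe sets called ranged from 1.89% to 10.1% for R5020 in WT PR-A cells, 0.0122% to 2.3% for R5020 in PR-A K388R cells, 0% to 3.21% for their difference, 2.31% to 11.1% for WT PR-A and 0.104% to 5.37% for PR-A K388R against T47D-Y cells, lowest with unmoderated contrasts. Dim signals limit what can be said of DKK3, SFRP1, FRZB, WIF1, FZD6 and of DKK1 in PR-A K388R cells.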
